A study of Mus musculus with 4 samples.

Results

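The genes examined here are 10 chaperone and protein folding genes of the endoplasmic reticulum (ER), namely Hspa5, Hsp90b1, Pdia4, Pdia6, Calr, Sdf2l1, Manf, Herpud1, Ssr4 and Dnajb9. They were chosen by name from the 32287 features of the count tables, with earlier results of these data known, and all 10 were present. They were measured in popliteal lymph nodes (PLNs), which drain the hind limb, by Visium spatial transcriptomics, in which a grid of barcoded spots captures the RNA of a tissue section and each molecule is counted through a unique molecular identifier (UMI). All mice were male and of the C57BL/6 strain, and the labels put the PLNs into 3 groups. The wild-type (WT) group was 5.5 months old and was represented by 1 capture area holding 10 PLNs of 5 mice. TNF-Tg mice, a transgenic line that overexpresses tumor necrosis factor and develops inflammatory-erosive arthritis, gave the other 2 groups. The Early arthritis group was also 5.5 months old and had 1 area with 6 PLNs of 3 mice, and the Advanced arthritis group was 8.5 to 9 months old and had 2 areas, Advanced 1 and Advanced 2, each with 6 PLNs of 3 mice. In all groups a dye had been injected into the hind paw to find the nodes. Age and stage of arthritis thus cannot be told apart between Advanced and the other groups, and each area pools the nodes of several mice.

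Secreted and membrane proteins are threaded into the ER as they are made, and chaperones and folding enzymes there fold them, form their disulfide bonds and hand over failed products for degradation. When unfolded protein accumulates, sensors in the ER membrane start the unfolded protein response, which raises the transcription of many of these chaperones. Plasma cells, which secrete antibody and line the medullary cords of lymph nodes, are known for an enlarged ER and for high levels of this machinery, under the transcription factor Xbp1. The 10 genes cover several steps. Hspa5 (BiP) is the ER's Hsp70 chaperone and binds unassembled immunoglobulin heavy chains, and Hsp90b1 (GRP94) is its Hsp90 chaperone. Dnajb9 (ERdj4) and Sdf2l1 work with Hspa5. Pdia4 and Pdia6 are protein disulfide isomerases, and Calr (calreticulin) is a lectin chaperone for glycoproteins that also binds calcium. Ssr4 is a subunit of the translocon-associated protein complex, Herpud1 belongs to the ER-associated degradation machinery, and Manf is a secreted and ER-resident protein induced by ER stress.

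The areas held 833 to 2015 spots and 1808678 to 5180493 UMIs, of which immunoglobulin genes took 8.16% on WT, 3.96% on Early, 5.91% on Advanced 1 and 7.92% on Advanced 2. A spot covers a small region with several cells, so that more cells of a type and more RNA per cell cannot be told apart in any value below. The 10 genes together gave 33699 UMIs, from 550 for Sdf2l1 to 7338 for Hsp90b1. Markers of lymph node cells were detected on every area, and in the plasma cell, B cell and T cell lists no marker was at 0 on any area. Intervals for single areas are exact Poisson 95% intervals, which cover counting error only.

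The ER stress response element is the promoter motif through which the unfolded protein response acts on many ER chaperones, and its occurrences in the promoters of these genes are shown here. RefSeq promoter sequences of GRCm38.p6, from 250 bases before to 50 bases after the annotated start, were found for 9 of the 10 genes, the exception being Manf. Searched on both strands as CCAAT and CCACG parted by 9 bases of any kind, the element was present in 4 of the 9 promoters (44.4%), against 39 of all 32851 promoters (0.119%), 4 of 22 promoters of other ER chaperones (18.2%) and 0 of 20 of cytosolic chaperones. The related ERSE-II motif, ATTGG and CCACG parted by 1 base, was present in Herpud1, whose window has no match of the first motif, and in 12 of all promoters (0.0365%). The cores TGACGTGG and TGACGTCA had no match in the 9 windows, and were found in 0.676% and 1.79% of all promoters. Each match is printed 5′ to 3′ on the strand of its gene with the motif in capitals and 10 bases to either side.
Hspa5, chr2:34772015-34772053, plus strand: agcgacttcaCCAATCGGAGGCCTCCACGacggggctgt
Hsp90b1, distal match, chr10:86705628-86705666, minus strand: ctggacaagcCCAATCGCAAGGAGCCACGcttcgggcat
Hsp90b1, proximal match, chr10:86705523-86705561, minus strand: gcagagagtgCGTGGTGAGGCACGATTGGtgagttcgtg
Pdia6, chr12:17266481-17266519, plus strand: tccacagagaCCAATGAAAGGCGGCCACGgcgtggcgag
Calr, chr8:84847065-84847103, minus strand: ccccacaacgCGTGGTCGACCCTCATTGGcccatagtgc
Herpud1 (ERSE-II), chr8:94386367-94386397, plus strand: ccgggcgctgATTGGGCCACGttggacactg
The match in Calr and the proximal match in Hsp90b1 lie in the opposite orientation to the gene, so that they read as the reverse complement. Pdia4, Dnajb9, Sdf2l1 and Ssr4 held no match of any motif searched. Distances were counted from the RefSeq start of the promoter table. Except in Sdf2l1, it differs from the gene bounds given below from the annotation of the count tables. The RefSeq start lies inside those bounds in Hspa5, Hsp90b1, Pdia6, Calr and Dnajb9, and outside them in Pdia4, Herpud1 and Ssr4. From that start, the matches began 65 bases upstream in Hspa5, 98 in Pdia6 and 52 in Herpud1. In Hsp90b1 they lay from 212 to 194 and from 107 to 89 bases upstream, and in Calr from 162 to 144. The 250 bases upstream of Hspa5, chr2:34771840-34772089 on the plus strand, show the motif in its setting, just before the TATA-like stretch of the promoter.
Hspa5 upstream: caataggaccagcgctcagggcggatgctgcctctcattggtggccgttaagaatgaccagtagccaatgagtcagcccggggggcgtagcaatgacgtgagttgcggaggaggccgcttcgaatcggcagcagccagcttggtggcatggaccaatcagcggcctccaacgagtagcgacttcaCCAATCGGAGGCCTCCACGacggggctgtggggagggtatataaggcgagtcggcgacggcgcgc
These matches are a description of the letters in these windows. No binding was measured in these data.

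Whether the 10 genes followed antibody production across the nodes was addressed by ranking the spots of each area by the share of their UMIs that came from 392 immunoglobulin genes. Spots with at least 500 UMIs, which were 39.9% to 47.5% of the spots and held 94.7% to 98.1% of the UMIs, were cut into 5 equal bins per area, with immunoglobulin shares of 1.32% to 2.06% in the bottom bin and 12.2% to 20.7% in the top bin. Levels are given as UMIs per 10000 non-immunoglobulin UMIs, so that the immunoglobulin UMIs that defined the bins do not enter them. High and low shares lay in connected patches of the nodes, and the correlation of the share (square root) between a spot and the mean of its neighbours was 0.72 to 0.84.

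**Figure D1:**
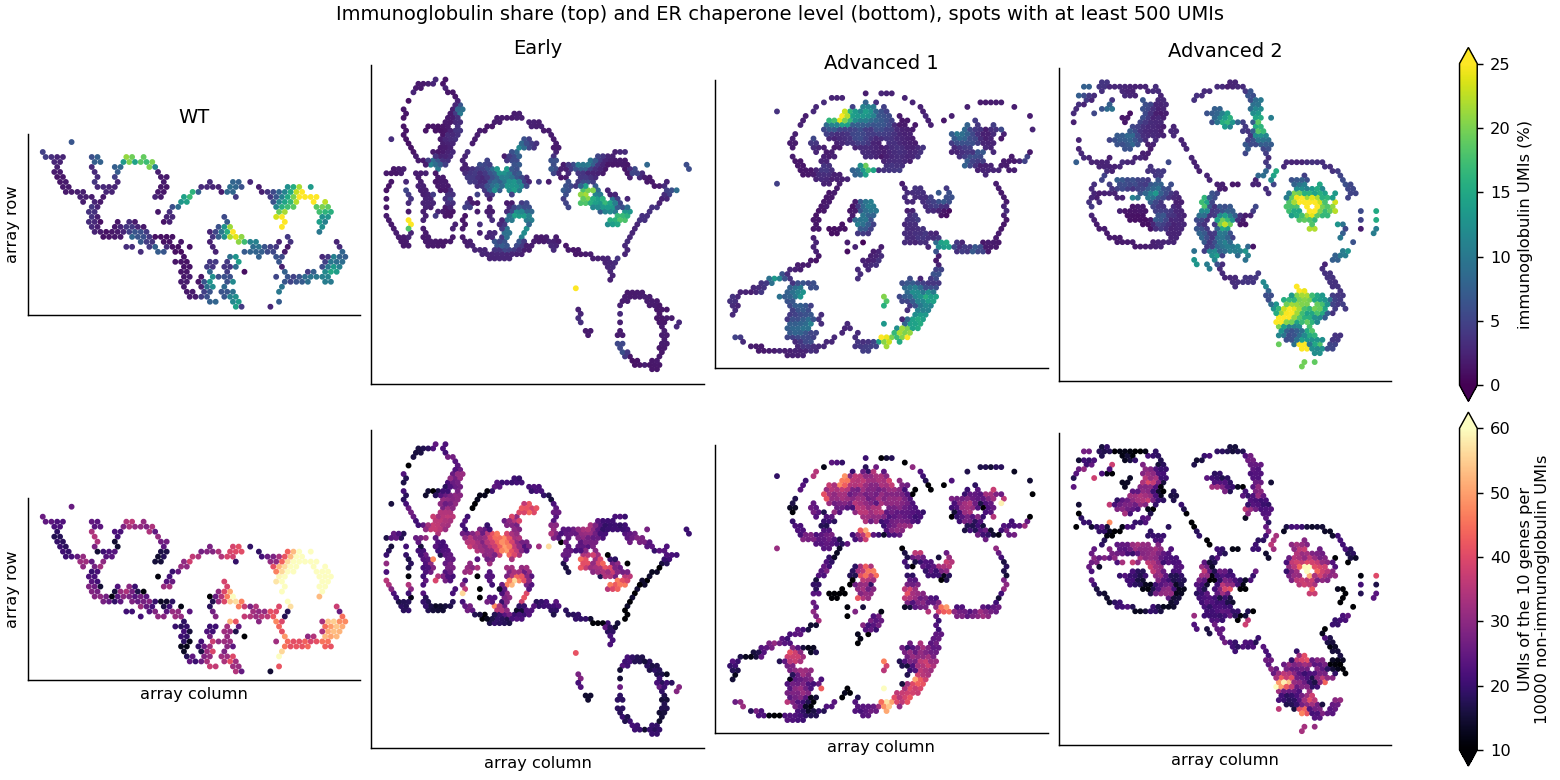
Maps of the 4 capture areas by array column and row, each point a spot with at least 500 UMIs. The top row is colored by the share of immunoglobulin UMIs (%) and the bottom row by the summed UMIs of the 10 genes per 10000 non-immunoglobulin UMIs, both averaged with the neighbouring spots, and the brightest patches of the bottom row mostly lie within those of the top row.

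The 10 genes were together higher where immunoglobulin was higher, on 4 of 4 areas. Their summed level rose from 22.5 UMIs per 10000 non-immunoglobulin UMIs in the bottom bin (interval 20.7 to 24.4) to 59.4 in the top bin (56.9 to 62.0) on WT, and from 21.7 (20.9 to 22.5) to 35.6 (34.3 to 36.9) on Early. On Advanced 1 it went from 23.5 (22.3 to 24.7) to 36.7 (35.3 to 38.1), and on Advanced 2 from 18.9 (17.8 to 20.1) to 33.5 (31.9 to 35.2). The top bin thus held 2.65 times the level of the bottom bin on WT, 1.64 times on Early, 1.56 times on Advanced 1 and 1.77 times on Advanced 2. The step from the fourth to the fifth bin alone was at least 1.35 times on each area. Of the 10 genes, 8 were higher in the top than in the bottom bin at an adjusted p under 0.05 (edgeR's quasi-likelihood test on UMIs summed per area and bin, area as a block, Benjamini-Hochberg adjustment over 8486 genes), and none was lower. Among all genes tested, 3.66% were called higher and 2.59% lower. Since the 10 genes were chosen with earlier results of these data known, setting them beside these shares is a description. The median log2 difference was 0.83 for the 10 genes and -0.01 for all genes, and all 10 were higher in the top bin on every area, as were 15.5% of all genes tested.

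**Figure D2:**
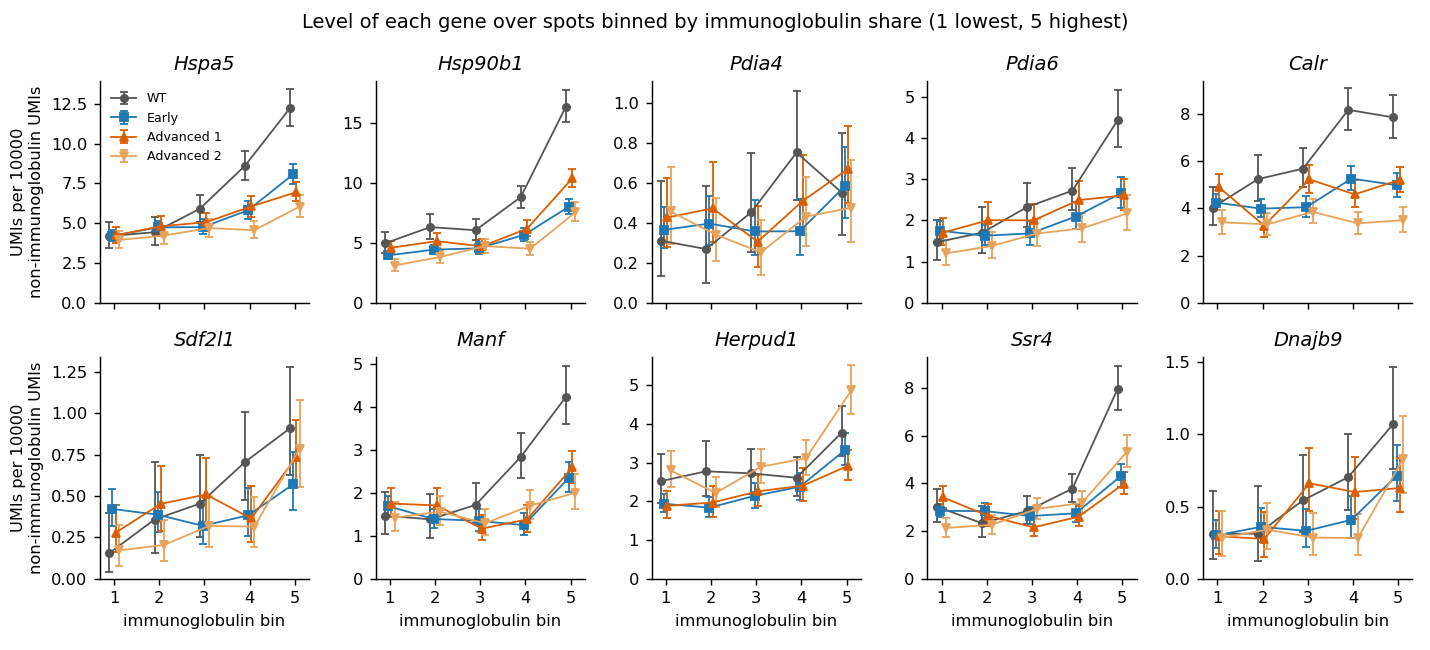
Level of each of the 10 genes (UMIs per 10000 non-immunoglobulin UMIs, vertical axes from 0 and separate for each gene) in the 5 bins of spots by immunoglobulin share, with 1 line per area and exact Poisson 95% intervals as bars. The fifth bin is the highest on 4 of 4 areas for 7 genes, and Calr is the gene for which it is so on 0 of 4. The share of all genes with this order was not counted.

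The Hsp70 and Hsp90 chaperones of the ER were called. Hspa5 (ENSMUSG00000026864, chr2:34771970-34777547 of GRCm38) was at 4.19 UMIs per 10000 non-immunoglobulin UMIs in the bottom bin of WT and 12.2 in the top bin, at 4.19 and 8.07 on Early, 4.23 and 6.95 on Advanced 1, and 3.94 and 6.04 on Advanced 2. Its bottom bins spanned only 3.94 to 4.23 over the 4 areas, its top bins 6.04 to 12.2, and no top bin reached down to a bottom bin. The share of all genes with such a separation was not counted, here or for Dnajb9 below. The log2 difference over the 4 areas came to 0.91 (standard error 0.17, adjusted p = 0.00187, edgeR). Hsp90b1 (ENSMUSG00000020048, chr10:86690209-86705509) went from 4.96 to 16.4 on WT, from 3.95 to 8.02 on Early, from 4.59 to 10.4 on Advanced 1 and from 3.10 to 7.55 on Advanced 2. Its log2 difference of 1.26 (standard error 0.16) had the lowest adjusted p of the 10 genes in the edgeR test, 4.26e-05.

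The partners of Hspa5 rose as well. Dnajb9 (ENSMUSG00000014905, chr12:44205559-44210326) was at 0.286 to 0.310 UMIs per 10000 non-immunoglobulin UMIs in the bottom bins and reached 1.07 on WT, 0.713 on Early, 0.629 on Advanced 1 and 0.827 on Advanced 2 in the top bins. These levels rest on 8 to 42 UMIs in the bottom bins and 39 to 55 in the top bins. The values of the bottom and the top bins did not overlap, but on Advanced 1 their intervals did (0.175 to 0.467 and 0.462 to 0.836). Its log2 difference was 1.31 (standard error 0.22, adjusted p = 0.000964, edgeR). Sdf2l1 (ENSMUSG00000022769, chr16:17130138-17132383) went from 0.155 to 0.909 on WT, from 0.422 to 0.571 on Early, from 0.279 to 0.736 on Advanced 1 and from 0.171 to 0.786 on Advanced 2. The ratio of top to bottom bin ran from 1.35 on Early to 5.86 on WT, where the bottom bin held 4 UMIs, and the difference over the 4 areas came to a log2 value of 1.26 (standard error 0.29, adjusted p = 0.0105, edgeR).

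Of the disulfide isomerases, Pdia6 (ENSMUSG00000020571, chr12:17266545-17284770) was called and Pdia4 (ENSMUSG00000025823, chr6:47796141-47813430) was not. Pdia6 went from 1.47 to 4.44 UMIs per 10000 non-immunoglobulin UMIs on WT, from 1.75 to 2.66 on Early, from 1.71 to 2.61 on Advanced 1 and from 1.20 to 2.17 on Advanced 2 (log2 difference 0.83, standard error 0.19, adjusted p = 0.00892, edgeR). Pdia4 lay between 0.310 and 0.457 in the bottom bins and between 0.476 and 0.669 in the top bins, with 8 to 51 UMIs a bin. Its log2 difference of 0.49 (95% interval 0.05 to 0.94) did not pass the adjustment (edgeR, adjusted p = 0.238). When spots with at least 10% immunoglobulin UMIs were set against spots under 5%, it did, with a log2 difference of 0.94 (edgeR, adjusted p = 0.00145).

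Calr (ENSMUSG00000003814, chr8:84841850-84846934) stood apart in its shape along the bins. On WT it rose from 4.03 UMIs per 10000 non-immunoglobulin UMIs in the bottom bin to 8.17 in the fourth bin and was at 7.85 in the top bin. On Early it went from 4.24 to 4.98, on Advanced 1 from 4.89 to 5.21 and on Advanced 2 from 3.41 to 3.50, and on each of these areas the intervals of the bottom and the top bin overlapped. The log2 difference over the 4 areas was 0.28 (95% interval -0.06 to 0.62, adjusted p = 0.414, edgeR). Without the WT area it was 0.05 (adjusted p = 0.915, edgeR).

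The genes of the translocon, of degradation and of the secreted stress protein were called with smaller differences. Ssr4 (ENSMUSG00000002014, chrX:73787028-73790830) rose from 3.02 to 7.96 UMIs per 10000 non-immunoglobulin UMIs on WT, from 2.85 to 4.31 on Early, from 3.41 to 3.99 on Advanced 1 and from 2.13 to 5.34 on Advanced 2. Its log2 difference was 0.83 (standard error 0.19, adjusted p = 0.0126, edgeR), and its level climbed at the very top of the ranking, by 1.53 to 2.11 times between the fourth and the fifth bin. Herpud1 (ENSMUSG00000031770, chr8:94386438-94395377) had the most even response, with a standard deviation of the log2 ratio of top to bottom bin of 0.107 over the 4 areas, against 0.301 to 0.939 for the other 9 genes (log2 difference 0.66, standard error 0.15, adjusted p = 0.0112, edgeR). It went from 2.52 to 3.77 on WT, from 1.94 to 3.32 on Early, from 1.89 to 2.92 on Advanced 1 and from 2.80 to 4.86 on Advanced 2. Its call was lost in 4 of 17 alternative settings, among them that with no UMI minimum (log2 difference 0.35, adjusted p = 0.762, edgeR). Manf (ENSMUSG00000032575, chr9:106838312-106891979) rose from 1.47 to 4.24 on WT, a ratio of 2.88, and by 1.39 to 1.48 times on the 3 TNF-Tg areas (log2 difference 0.69, standard error 0.19, adjusted p = 0.0345, edgeR). Without the WT area its log2 difference was 0.44 (adjusted p = 0.159, edgeR).

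The count of called genes depended on how the spots were chosen. Of the spots with at least 500 UMIs, those with spots labelled as under tissue on all 6 sides left 8 of the 10 genes above the filter. Of these, 3 were called (Hspa5, Hsp90b1 and Ssr4). Regardless of UMIs, the median of such interior spots was 140.5 to 250.5 UMIs over the areas, and that of edge spots 2113 to 5541. The use of all spots regardless of UMIs left 5 called. Without Advanced 2, 4 were called (Hspa5, Hsp90b1, Pdia6 and Dnajb9), and without WT 6. Hspa5 and Hsp90b1 were called in all of these settings, and the log2 differences of the 10 genes remained positive wherever they were tested.

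**Figure D3:**
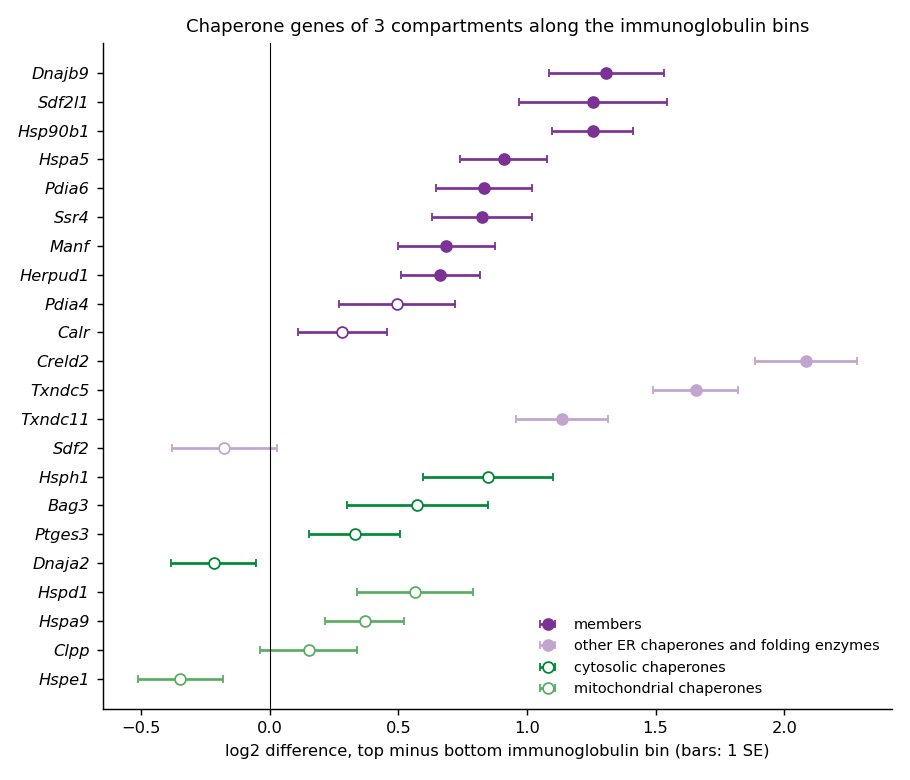
Log2 difference between the top and the bottom immunoglobulin bin (horizontal axis, bars 1 standard error) for the 10 genes and for the genes named from 3 other chaperone lists. Filled points were called by edgeR at an adjusted p under 0.05, and no cytosolic or mitochondrial chaperone is filled.

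Other ER genes moved with the 10. Of 23 other ER chaperones and folding enzymes tested, 6 were higher in the top bin and none lower, with a median log2 difference of 0.49. Creld2, an ER-resident protein induced together with Manf under ER stress, had the largest difference at 2.08 (standard error 0.20, adjusted p = 1.66e-06, edgeR), from 0.362 to 0.620 UMIs per 10000 non-immunoglobulin UMIs in the bottom bins to 1.75 to 3.33 in the top bins. Txndc5, a disulfide isomerase of plasma cells, followed at 1.66 and Txndc11 at 1.14, while Sdf2, the paralog of Sdf2l1, was at -0.18 (adjusted p = 0.717, edgeR). In the list of the translocon, signal peptidase and oligosaccharyltransferase, 6 of 28 were higher and none lower (median 0.36). Spcs3 and Sec11c, subunits of signal peptidase, were at 1.41 and 0.84, and Rpn1, a subunit of oligosaccharyltransferase, at 0.87, while Sec61b of the translocon channel was at -0.06 (adjusted p = 0.899, edgeR).

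In ER-associated degradation, 6 of 16 genes were higher and none lower (median 0.33). They were led by Derl3 at 2.88, a channel component, and by Edem1 at 1.41 and Edem2 at 1.02, which mark glycoproteins for degradation, and the smallest was the ubiquitin-conjugating enzyme Ube2j2 at -0.14 (adjusted p = 0.768, edgeR), which was positive with no UMI minimum. The list of ER to Golgi transport had 4 of 21 higher and none lower (median 0.41), with the cargo receptors Lman1 at 0.92 and Surf4 at 0.70 and the retrieval receptor Kdelr2 at 0.89, and the smallest was the coat GTPase Sar1b at -0.08 (adjusted p = 0.911, edgeR), which was positive in 5 of the alternatives. Among 9 sensors and transcription factors of the unfolded protein response, Xbp1 at 1.80 (standard error 0.21, adjusted p = 1.43e-05, edgeR) and Creb3l2 at 1.01 (adjusted p = 0.0197) were higher, and Atf6 was at 0.47 (adjusted p = 0.319). Ddit3 (CHOP), a factor of the PERK branch, was at -0.24 (adjusted p = 0.583, edgeR) and was higher in the top bin on 0 of 4 areas. Of 11 further targets of the PERK and ATF4 branch, 2 were higher and none lower (median 0.13), namely the serine synthesis enzyme Phgdh at 1.02 and the amino acid transporter subunit Slc3a2 at 0.69. Atf5 was at 0.40 (adjusted p = 0.407, edgeR) and Ddit4 at -0.45 (adjusted p = 0.274, edgeR).

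No chaperone of the cytosol or the mitochondria was called in the main comparison of the bins. Of 23 cytosolic chaperones tested, 0 were called in either direction by edgeR and the median log2 difference was 0.10, against 0.83 for the 10 ER genes. The largest was Hsph1 at 0.85 (standard error 0.25, adjusted p = 0.0515, edgeR) followed by Bag3 at 0.57 and Ptges3 at 0.33, and the smallest was Dnaja2 at -0.22, which was positive with no UMI minimum. Of 8 mitochondrial chaperones, 0 were called (median 0.05), with Hspd1 at 0.56 (adjusted p = 0.167, edgeR), Hspa9 at 0.37, Clpp at 0.15 (negative with immunoglobulin UMIs in the library size) and Hspe1 at -0.35 (adjusted p = 0.259, edgeR). Some of these gained a call in other settings, all in edgeR. Hsph1 was called with a minimum of 1000 UMIs (adjusted p = 0.0438) and Hspd1 without the Early area (adjusted p = 0.0252). Hspe1 was called lower with immunoglobulin UMIs in the library size (adjusted p = 0.041). In the trend over the 5 bins Hsph1, Hspd1 and Hspa9 were called higher and Hspe1 lower (adjusted p = 0.0496, 0.0128, 0.0457 and 0.011). A p that misses the threshold does not show that these genes were level. The lists were chosen with earlier results of these data known, and the difference between them was not tested.

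Markers of several cell types moved along the same bins. The summed level of the plasma cell markers was 7.68 to 10.9 UMIs per 10000 non-immunoglobulin UMIs in the bottom bins and 49.5 to 73.3 in the top bins, and all 10 markers tested of 13 were higher, Jchain by 4.40 on the log2 scale (adjusted p = 4.54e-12, edgeR), Eaf2 by 3.80, Sdc1 by 1.47, Mzb1 by 1.35, Slamf7 by 1.1, Cd93 by 0.69 and Irf4 by 0.82, the last of which was at -0.65 and not called with no UMI minimum. Xbp1, Txndc5, Derl3 and Fkbp11 stand in this list and also in the ER lists above. The 10 B cell and follicle markers were all lower (36.4 to 79.0 in the bottom bins and 19.2 to 37.7 in the top bins). Of the sinus macrophage markers 6 of 8 were higher, of the capsule and fat markers 6 of 11, of the neutrophil markers 6 of 7, of the lymphatic endothelium markers 4 of 7 and of the T cell markers 2 of 12, and none of these were lower. The germinal centre list had 2 of 4 higher and the mast cell list 0 of 5. The part of each cell type in the rise of the 10 genes was not tested.

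Over the 20 values of 5 bins on 4 areas, centred within each area on the log2 scale, the genes most like the mean profile of the 10 were Slpi (Pearson's r 0.97), Xbp1 (0.95), Creld2 (0.95), Spcs3 (0.93), Prdx4 (0.92), Jchain (0.92), Edem2 (0.92), Mzb1 (0.91), Txndc5 (0.90) and Tent5c (0.90), out of 5115 genes with at least 500 UMIs. The bins of an area come from 1 library, so these values describe likeness and carry no test. Of these, Mzb1 and Jchain are plasma cell genes for antibody assembly, Prdx4 is an ER peroxidase, and Slpi is a secreted protease inhibitor. Slpi also differed widely between areas, with 4.77 to 215 UMIs per 10000 non-immunoglobulin UMIs in the top bins. Among the 10 genes themselves, the correlation of each with the mean of the other 9 was 0.95 for Hspa5, 0.94 for Hsp90b1 and 0.94 for Pdia6, and was lowest for Pdia4 at 0.68 and Calr at 0.65.

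Fixed limits on the immunoglobulin share let the areas be set side by side at a like share. In spots under 2%, the 10 genes summed to 22.9 UMIs per 10000 non-immunoglobulin UMIs on WT (interval 21.2 to 24.6), 21.8 on Early (21.2 to 22.5), 23.4 on Advanced 1 (22.2 to 24.6) and 18.6 on Advanced 2 (16.8 to 20.6). WT, Early and Advanced 1 overlapped there, and Advanced 2 lay below them. In spots from 10% to under 20%, the sums were 51.0 on WT (48.5 to 53.5), 37.7 on Early (35.5 to 40.0), 36.7 on Advanced 1 (upper bound 38.4) and 26.8 on Advanced 2 (25.3 to 28.3). Here WT lay above the 3 TNF-Tg areas beyond counting error. At 20% or more, which 14 to 75 spots per area reached, the sums were 70.8 on WT, 51.2 on Early, 53.7 on Advanced 1 and 43.7 on Advanced 2. On each area the sum rose at every step of the share.

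**Figure D4:**
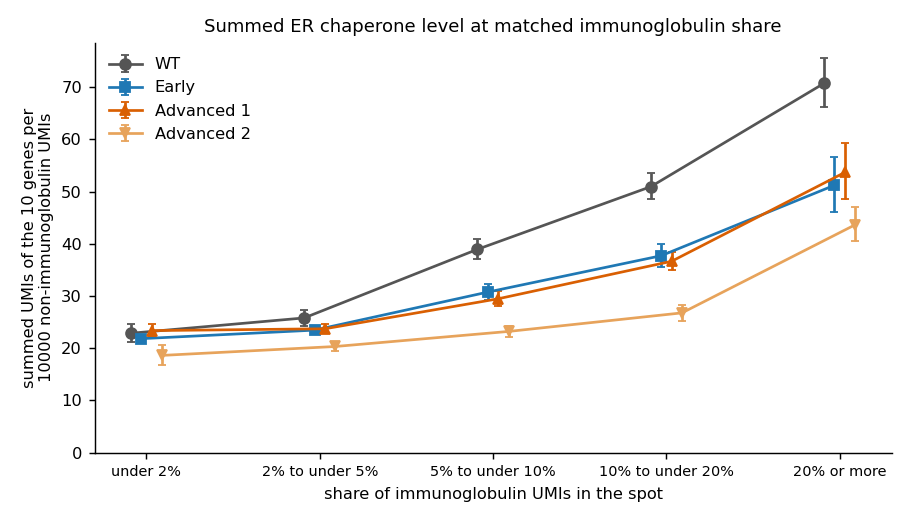
Summed level of the 10 genes (UMIs per 10000 non-immunoglobulin UMIs, axis from 0) in spots with at least 500 UMIs in 5 classes of immunoglobulin share, with 1 line per area and exact Poisson 95% intervals. WT rises from 22.9 to 70.8, and the 3 TNF-Tg areas lie between 43.7 and 53.7 in the highest class.

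Single genes behaved differently over these classes. Hspa5 went from 4.21 UMIs per 10000 non-immunoglobulin UMIs under 2% to 12.7 at 20% or more on WT, from 4.45 to 12.6 on Early, from 4.17 to 11.4 on Advanced 1 and from 3.78 to 8.20 on Advanced 2. On WT it had reached 11.6 already between 10% and 20%, where Early was at 8.76, Advanced 1 at 6.74 and Advanced 2 at 4.86. Herpud1 at 20% or more was at 5.08 on WT (interval 3.90 to 6.50), 5.14 on Early (3.62 to 7.08), 3.41 on Advanced 1 (2.20 to 5.03) and 7.23 on Advanced 2 (5.99 to 8.65), so that for this degradation gene Advanced 2 was the highest. Calr rose on WT from 4.17 (3.49 to 4.95) under 2% to 7.41 (5.98 to 9.09) at 20% or more, with intervals that did not overlap. On the TNF-Tg areas it was at 4.72 on Early, 4.22 on Advanced 1 and 2.98 on Advanced 2 in that class, against 4.21, 4.92 and 3.74 under 2%, with overlapping intervals on each of these 3 areas.

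The groups were compared over all spots of an area, with levels as UMIs per 10000 UMIs of all genes. The 10 genes summed to 33.4 on WT (interval 32.6 to 34.3), 23.6 on Early (23.2 to 24.0), 25.3 on Advanced 1 (24.8 to 25.9) and 21.4 on Advanced 2 (20.9 to 21.9), and the Advanced mean was 23.4 ± 2.77 (SD, n = 2). WT was highest, and Early lay between the 2 Advanced areas. The WT area was the highest of the 4 for 8 of the 10 genes, as for 21.2% of all genes tested. The exceptions were Pdia4, at 0.456 on Advanced 1 and 0.448 on WT with overlapping intervals, and Herpud1, at 2.89 on Advanced 2 (2.70 to 3.08) and 2.65 on WT (2.42 to 2.90). Per 1000 immunoglobulin UMIs the order differed, with 59.6 UMIs of the 10 genes on Early, 42.9 on Advanced 1, 41.0 on WT and 27.1 on Advanced 2.

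**Figure D5:**
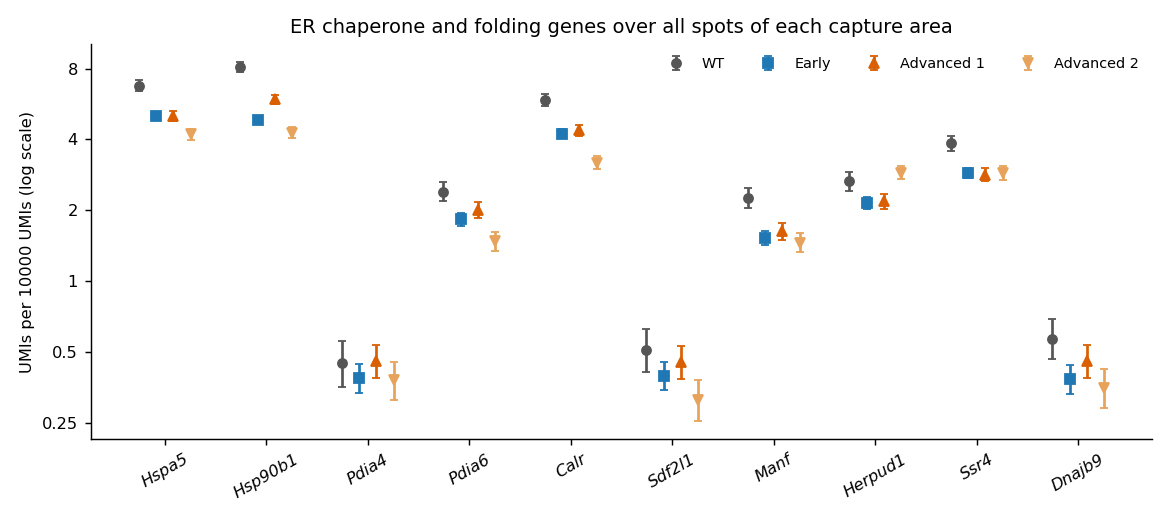
Level of the 10 genes over all spots of the WT, Early, Advanced 1 and Advanced 2 areas, as UMIs per 10000 UMIs on a log scale, with exact Poisson 95% intervals. WT is the highest point for every gene but Pdia4 and Herpud1.

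Between Advanced and Early arthritis, 0 of the 10 genes were called by edgeR at an adjusted p under 0.05, where 1.16% of 13102 genes were. None had an unadjusted p under 0.05 in edgeR, as 7.69% of all genes had, or in DESeq2. The log2 differences ran from -0.24 for Calr to 0.17 for Herpud1, with 95% intervals that together spanned -0.59 to 0.52. With 1 Advanced area left out, which leaves no test, Calr was at -0.48 (without Advanced 1) or -0.04 (without Advanced 2) and Herpud1 at 0.36 or -0.06. The sign of 7 of the 10 genes changed with the area left out. Hspa5 was at 5.02 UMIs per 10000 UMIs on Early, 5.03 on Advanced 1 and 4.21 on Advanced 2, and Hsp90b1 at 4.83, 5.93 and 4.28. In UMIs per 10000 UMIs, the Early value lay between those of the 2 Advanced areas for 9 of the 10 genes, and below both for Herpud1. The share of all genes with this order was not counted. With the library sizes of the fit the order could differ, as for Calr, which was below Early with either Advanced area left out. The spread of this test rests on the 2 Advanced areas alone (1 residual degree of freedom before sharing across genes), and WT and Early were assumed to vary as Advanced did.

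Between Advanced and WT, in the same fit and with the same Advanced areas, 4 of the 10 genes were lower in Advanced, where 1.34% of all genes tested were lower and 2.08% were called in either direction. Hsp90b1 was at 8.11 UMIs per 10000 UMIs on WT against 5.93 and 4.28 on the Advanced areas (log2 difference -0.78, standard error 0.16, adjusted p = 0.000103, edgeR). Calr was at 5.87 against 4.37 and 3.18 (-0.75, adjusted p = 0.00065). Hspa5 was at 6.77 against 5.03 and 4.21 (-0.66, adjusted p = 0.00308), and Manf at 2.26 against 1.63 and 1.46 (-0.66, adjusted p = 0.0242), all from edgeR. In each of these 4 genes both Advanced areas and the Early area lay below WT beyond their counting intervals. These genes were picked by their call, and the share of all genes with such a separation was not counted, so it is no further support. Ssr4 at -0.54 (adjusted p = 0.0725) and Pdia6 at -0.58 (adjusted p = 0.0739) did not pass in edgeR, nor did Dnajb9, Sdf2l1, Pdia4 and Herpud1, with log2 differences of -0.61, -0.52, -0.21 and -0.18. DESeq2 on the same sums called 0 of the 10, with 5 at an unadjusted p under 0.05, as were 285 of 13102 genes. In edgeR 8 of the 10 were at an unadjusted p under 0.05, as were 10.7% of all genes. With WT on 1 area, a difference of genotype cannot be told apart from a difference of that area.

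These 4 calls were not kept when the share of immunoglobulin was held within limits. In spots under 5% immunoglobulin UMIs, 0 of the 10 genes were called in edgeR, where 82 of 12074 genes were. Their median log2 difference there was -0.18. In spots with 10% or more it was -0.78, again with 0 called, where 71 of 9331 genes were. In these spots 6 of the 10 had an unadjusted p under 0.05 in edgeR, as had 703 of the 9331 genes. The lowest adjusted p of the 10 was 0.112 for Hspa5 (edgeR). Fewer spots entered these fits. Cell type markers differed between the areas too. The plasma cell markers summed to 27.6 UMIs per 10000 UMIs on WT, 16.1 on Early, 19.8 on Advanced 1 and 23.3 on Advanced 2, and 2 of 13 were lower in Advanced than in WT. The sinus macrophage markers summed to 55.7 on WT and 27.3 to 37.3 on the TNF-Tg areas, with 7 of 9 lower in Advanced than in WT. The B cell and follicle markers were at 26.5 on WT and 40.6 to 65.1 on the TNF-Tg areas, with 3 of 10 higher. Their part in the differences of the 10 genes was not tested.

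The other ER lists held few calls between Advanced and WT. Of 25 other ER chaperones and folding enzymes, 2 were lower and none higher (median -0.31), Creld2 among them at -0.88 (adjusted p = 0.00154, edgeR). In the translocon and oligosaccharyltransferase list 1 of 28 was lower (Rpn1 at -0.66, adjusted p = 0.03), and in ER-associated degradation 0 of 16 (median -0.21). Cytosolic chaperones had 2 of 26 lower (median -0.25), Hsph1 at -0.92 (adjusted p = 0.043, edgeR) among them, and mitochondrial chaperones 0 of 8 (median -0.21). The median of all genes tested was 0.01 and that of the 10 genes -0.59. The sensors and transcription factors of the unfolded protein response had 0 of 9 called by edgeR, with Xbp1 at -0.50 (adjusted p = 0.163).

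The rise from the bottom to the top immunoglobulin bin was also compared between WT and the 3 TNF-Tg areas, a comparison chosen after the data had been seen. It was larger on WT for 9 of the 10 genes, with a median difference of the log2 rises of 0.87. The median over all genes was -0.003, and the share of all genes with a larger rise on WT was not counted. Medians were positive for other lists too, among them other ER chaperones (0.47), plasma cell markers (0.62) and cytosolic chaperones (0.42). Those of the T cell (-1.20), lymphatic endothelium (-0.16), B cell (-0.10) and PERK target (-0.07) lists were negative. None of the 10 was called by edgeR (lowest adjusted p = 0.469, for Manf), where 0.0236% of all genes were, and 4 had an unadjusted p under 0.05, as had 7.85% of all genes. Without Advanced 2 the count of 4 became 7, where 1013 of 9119 genes had an unadjusted p under 0.05 in edgeR. Over all genes 44 were called without Advanced 2 and 21 without Advanced 1, against 2. None of the 10 was called in any of these settings. The 4 genes were Manf, with a difference of 1.15 between the log2 rises, Pdia6 with 1.04, Calr with 0.97 and Hspa5 with 0.91. Herpud1 was the exception to the direction at -0.02 (95% interval -0.73 to 0.68). Since WT had 1 area, the genotype and that area cannot be told apart here.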

How the data were processed

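UMIs per gene and spot had been counted by the authors with Space Ranger 1.1.0 on mm10 (GRCm38), per the labels, and the deposited matrices hold raw counts of the spots under tissue, without normalization. No other sample's columns were present (0). Counts were summed per capture area, or per area and immunoglobulin bin, since spots are not replicates. For the bins, 392 immunoglobulin genes were removed before library sizes and tests. Sums were tested with edgeR 4.0.16 (R 4.3.3; TMM, filterByExpr, quasi-likelihood test, Benjamini-Hochberg adjustment over all genes tested, called at 0.05), with DESeq2 1.42.0 as an alternative. The scripts were tested on simulated counts, drawn with the same dispersion for every gene and no area effect. The spread between the areas here can differ from that setting. For the bins, 66 of 92 genes changed 2-fold and 20 of 96 changed 1.5-fold were recovered. For Advanced against Early these were 39 of 100 and 5 of 97, so that a missing call there does not show that a gene was level. Standard errors were derived from the quasi-likelihood F statistic. The 10 genes and all lists were chosen with earlier results of these data known. Beside the 10, the 3 largest and the 1 smallest difference of each list (at least 100 UMIs), plasma cell markers and the 10 genes of most similar profile are named. Symbols and GRCm38 coordinates are those of the count tables and GENCODE M21. In the main comparison of the bins, p-values rest on how the difference varied between areas, with variance shared across genes. Between the groups they rest on the Advanced areas alone, since WT and Early had no replicate area. In edgeR that spread was shared across genes, so that the p-values between the groups do not measure a gene's own spread between areas.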

Additional observations from a re-analysis of the deposited data

How the results depend on the processing

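In the immunoglobulin bins, the count of the 10 genes called was 8, and it moved to 5 with no UMI minimum and to 3 in interior spots; leaving out 1 area gave 4 (without Advanced 2) to 8. Without the replicate block it was 7. Hspa5 and Hsp90b1 were called in all 17 alternatives, and Manf lost its call in 8, Herpud1 in 4 and Ssr4 in 3. Over all genes, 531 were called, against 248 in DESeq2, 271 with no UMI minimum, 69 in interior spots, 1442 as a trend over the 5 bins (which counts the bins of an area as separate libraries), 369 without the replicate block and 328 to 453 with 1 area left out. Of the calls, 58.6% were higher; with immunoglobulin UMIs kept in the library size 27.0% were, the median of all genes shifted to -0.19 and 6 of the 10 genes were called. With no UMI minimum that median was 0.31.

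Between Advanced and Early the 152 calls over all genes fell to 7 in DESeq2, 15 in spots at 10% immunoglobulin or more, 61 in spots under 5%, 36 in interior spots and 18 in edge spots. Between Advanced and WT the 4 calls became 0 in DESeq2, 0 at 10% or more, 0 under 5%, 0 in interior spots and 1 in edge spots, and the 272 over all genes became 34, 71, 82, 40 and 126. The causes were not tested. No paired analysis was possible between the groups because they share fewer than 2 replicate numbers, and the number of WT and of Early only names their single area. Leaving out an Advanced area leaves a value with no test there.

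Values of named genes that changed sign follow, none of them called after the change and Irf4 alone called before it. In the bins with no UMI minimum, Sdf2 was at 0.54, Sec61b 1.23, Ube2j2 0.65, Sar1b 0.38, Dnaja2 0.64 and Irf4 -0.65. Sar1b was at 0.0995 with light chain bins, 0.0581 with depth classes, 0.136 with fixed shares and 0.0381 in edge spots. Sec61b was at 0.0071 with depth classes, 0.232 with fixed shares and 0.546 in interior spots, and Clpp at -0.0339 with immunoglobulin in the library size. Leaving out 1 area moved Sdf2 from -0.372 to 0.0215 and Sec61b from -0.214 to 0.0876. Between Advanced and Early, Hsp90b1 was at -0.0011 in DESeq2, -0.0009 with its size factors, -0.0172 with no filter, -0.0715 at 10% or more, -0.151 under 5% and -0.142 in interior spots. Dnajb9 was at 0.0002 with immunoglobulin genes removed, 0.0331 at 500 UMIs or more, 0.0425 under 5% and 0.0252 in edge spots, and Pdia4 at -0.0076 at 500 UMIs or more, -0.621 at 10% or more and -0.0732 under 5%. At 10% or more Sdf2l1 was at 0.42 and Herpud1 at -0.0766, and in edge spots Sdf2l1 was at 0.0361, Manf at 0.0112 and Ssr4 at 0.0046. Leaving out 1 Advanced area gave -0.241 to 0.206 for Hsp90b1, -0.103 to 0.142 for Pdia4, -0.375 to 0.0368 for Pdia6, -0.406 to 0.104 for Sdf2l1, -0.132 to 0.0038 for Manf, -0.0613 to 0.365 for Herpud1 and -0.193 to 0.164 for Dnajb9. Between Advanced and WT it gave -0.405 to 0.021 for Herpud1, Pdia4 was at 0.129 and Sdf2l1 at 0.15 under 5%, and Herpud1 at 0.216 in interior spots. The difference between the WT and TNF-Tg rises ran from -0.0924 to 0.0157 for Herpud1 when 1 TNF-Tg area was left out; with no UMI minimum the median difference of the 10 genes was 4.28, where that of all genes was 2.51.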
